A study of Mus musculus with 6 samples.

Results

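Of the matrix metalloproteinases and their inhibitor Timp1, 10 genes were examined in mouse back skin: Mmp2, Mmp3, Mmp8, Mmp9, Mmp10, Mmp12, Mmp13, Mmp14, Mmp19 and Timp1. They are 10 of 27310 genes named on the array, and were found as the 13 probes that carry one of these names. The genes were chosen by their measured difference between the groups on these same arrays, so their own differences are given as a description, with SE and without a test. Of the 10, 9 were bright enough to be tested among 17777 genes, and Mmp12 was well above background on 0 of 6 arrays.

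RNA of whole back skin came from female C57BL/6J mice of 6 to 8 weeks, an inbred strain with no engineered allele named. A 5% imiquimod cream or a vehicle cream, 62.5 mg daily, had been put on the shaved back for 7 days. Imiquimod activates the receptor Tlr7 and provokes a psoriasis-like inflammation in mice. Each group had 3 samples, hybridised to 1 Agilent array apiece with a single dye. The labels number the samples without naming separate animals, so the p-values speak only of the spread among the arrays, some of which may be technical. In bulk skin, fewer cells of a type and less RNA per cell cannot be told apart.

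The records disagreed on which arrays were treated. For 6 of 6 scanner files, the treatment in the file name and the treatment of the sample holding the file were opposite. The deposited value table, read by sample title, matched the file names: each column had a Spearman correlation of at least 0.9999997 with the file named for its treatment and number, against 0.943 to 0.952 for the pairs given by the filing. The arrays are therefore called imiquimod-named and vehicle-named after their file names. Every direction below rests on that naming and would turn round under the filing. The 3 vehicle-named arrays and imiquimod-named array 1 were on slide 1, and imiquimod-named arrays 2 and 3 were on slide 2. A fit with a slide term therefore sets imiquimod-named array 1 alone against the 3 vehicle-named arrays. Calls kept or lost with that term cannot show the part of the slide. All 7 keratinocyte markers were well above background on all 6 arrays.

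Matrix metalloproteinases are zinc enzymes that cut collagens, elastin, laminins and other proteins around cells. They are made as inactive proenzymes, which other proteases activate, and tissue inhibitors of metalloproteinases (Timps) block them by binding the active site. In skin they are known from wound healing, from leukocyte entry and from the remodelling around hair follicles. Several of their genes are known targets of the AP-1 transcription factors, which act downstream of cytokines such as interleukin-1.

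Levels are log2 processed signals relative to the 75th percentile of the same array, so 0 is that percentile. Across the 9 measured members the median log2 difference, imiquimod-named minus vehicle-named, was 2.80, against 0.02 over all 17777 tested genes. All 9 differences lay above 0, from 0.46 for Mmp19 to 5.48 for Mmp8. In 8 of the 9, every imiquimod-named array lay above every vehicle-named array, and in 0 the reverse held. Of all tested genes 25.9% were separated in this way, 20.7% in the reverse and 46.6% in either, and 23.6% passed the limma test at an adjusted p under 0.05. Nothing is read from the count of 8, because this contrast chose the genes.

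**Figure D1:**
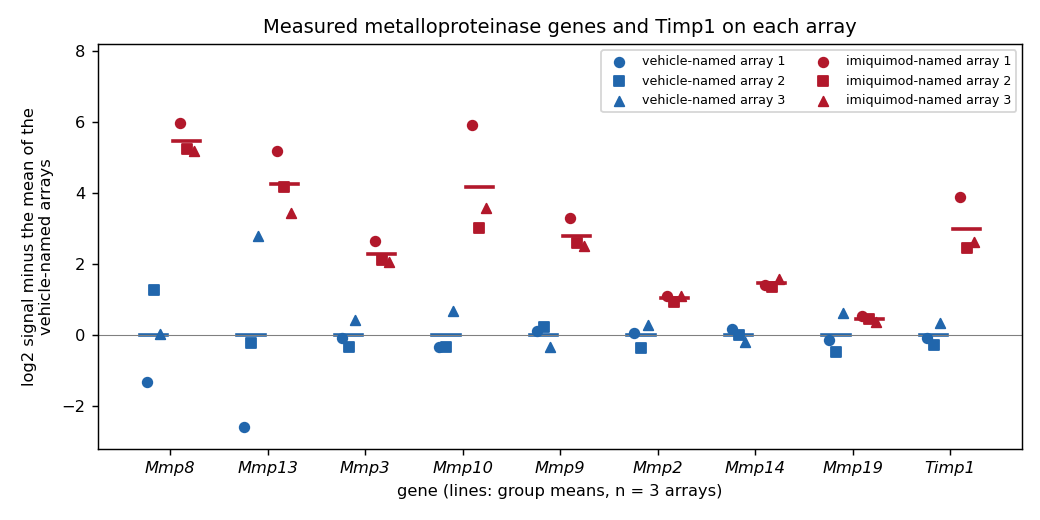
Log2 signal of each measured gene on each of the 6 arrays, minus its mean on the vehicle-named arrays; symbols mark the array number and lines the group means (n = 3). The groups overlap for Mmp19 only, and imiquimod-named array 1 stands highest for Mmp3, Mmp8, Mmp9, Mmp10, Mmp13 and Timp1.

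Of the members, 5 lie in one gene cluster on chromosome 9: Mmp3, Mmp8, Mmp10, Mmp12 and Mmp13. Promoter windows were found for 7 of the 10 members, 8 windows in all. The 250 bases before the start were searched for the AP-1 letters TGAGTCA, which read TGACTCA on the other strand. The letters stood in 4 of the 8 windows, all of the chromosome 9 cluster, and in 1466 of 32851 windows of all genes (4.46%). They stood in 3 of 17 windows of other Mmp and Timp genes, those of Mmp1a, Mmp1b and Mmp7, which are in the same cluster. The windows of Mmp8, Mmp14 and Timp1 did not hold these letters. A match is a description and not a binding site. The last 150 bases before the start are shown for the members with a match, because these letters are what these windows share; the sequences are from RefSeq (build GRCm38.p6, plus strand), with the AP-1 letters in capitals.
Mmp13, chr9:7272364-7272513: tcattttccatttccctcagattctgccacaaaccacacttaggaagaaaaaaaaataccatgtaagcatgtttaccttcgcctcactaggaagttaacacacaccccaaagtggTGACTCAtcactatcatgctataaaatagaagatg
Mmp3, chr9:7445672-7445821: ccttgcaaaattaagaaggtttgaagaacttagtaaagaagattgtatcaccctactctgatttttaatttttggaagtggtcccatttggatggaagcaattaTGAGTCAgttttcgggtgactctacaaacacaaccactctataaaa
Mmp10, chr9:7502192-7502341: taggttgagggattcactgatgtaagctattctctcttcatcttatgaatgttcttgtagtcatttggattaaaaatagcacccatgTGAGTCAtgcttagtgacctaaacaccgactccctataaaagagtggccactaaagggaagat
Mmp12, second of its windows, chr9:7347224-7347373: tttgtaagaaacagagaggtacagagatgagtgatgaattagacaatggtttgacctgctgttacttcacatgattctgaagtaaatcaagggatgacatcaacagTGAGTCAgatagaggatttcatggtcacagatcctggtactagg
The match began 35 bases before the start in Mmp13, 44 in Mmp12, 46 in Mmp3 and 63 in Mmp10. Mmp3, Mmp10 and Mmp13 were higher on the imiquimod-named arrays, while Mmp12 carried the letters and was not well above background on any array.

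Collagenases cut fibrillar collagen. Mmp8, the collagenase stored in neutrophil granules, was low or at background on the vehicle-named arrays. Its level was -0.03, -0.75 and -0.81 on imiquimod-named arrays 1, 2 and 3, and -7.33, -4.72 and -5.96 on vehicle-named arrays 1, 2 and 3. The groups did not overlap, and the closest arrays of the 2 groups were 3.91 apart. The fitted difference was 5.48 (SE 0.66), but Mmp8 was well above background on only 1 of 3 vehicle-named arrays, array 2, so its size rests partly on background. With normexp background correction, which adds an offset to every signal and so shrinks differences between dim signals, the difference was 3.00. The probe lies at mm9 chr9:7568238-7568297.

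Mmp13, the main interstitial collagenase of the mouse, stood at 0.17, -0.84 and -1.59 on imiquimod-named arrays 1, 2 and 3. It stood at -7.60, -5.24 and -2.23 on vehicle-named arrays 1, 2 and 3. Vehicle-named array 3 came within 0.64 of the lowest imiquimod-named array. The same array had the lowest mean of 7 hair follicle markers among the vehicle-named arrays, at 2.68 against 5.88 and 6.92. It also had the highest means of its group for macrophage, fibroblast, keratinocyte, endothelial, muscle and adipocyte markers. Between vehicle-named arrays 1 and 2, array 2 had both the higher hair follicle mean and the higher Mmp13 level. The part of hair follicle state or of any cell type in the Mmp13 values was not tested. The difference of Mmp13 was 4.27 (SE 1.34), with 2 of 3 vehicle-named arrays well above background. It was 2.43 with normexp correction, 2.98 without vehicle-named array 1, and 6.84 without vehicle-named arrays 2 and 3, which the scanner software marked with the quality status evaluate (an alternative added after seeing the data). The probe lies at mm9 chr9:7282762-7282821.

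The stromelysins Mmp3 and Mmp10 cut many matrix proteins and activate other proenzymes. Mmp3 was bright on all arrays: 4.07, 3.55 and 3.49 on imiquimod-named arrays 1, 2 and 3, and 1.33, 1.09 and 1.84 on vehicle-named arrays 1, 2 and 3. Both groups were narrow and lay 1.65 apart at their closest. The difference was 2.28 (SE 0.25), or 4.87-fold. It was 2.65 within slide 1.

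Mmp10, a stromelysin of the migrating edge of healing epidermis, was well above background on 3 of 3 imiquimod-named and 0 of 3 vehicle-named arrays. Its level was -1.16, -4.04 and -3.48 on imiquimod-named arrays 1, 2 and 3, so array 1 stood far above the other two. On vehicle-named arrays 1, 2 and 3 the measured values were -7.39, -7.41 and -6.40. Each dim array was given the dimmest signal of its probes that stood well above background, as a floor, and by this bound the imiquimod-named mean was at least 6.13-fold higher. Mmp10 was bright enough to be tested only through the imiquimod-named arrays. The fitted log2 difference was 4.17 (SE 0.78). It was 1.50 with normexp correction, less than that bound, which is 2.62 in log2. Within slide 1 the fitted difference was 5.91. The probes of Mmp3 and Mmp10 lie at mm9 chr9:7455751-7455810 and chr9:7510011-7510070.

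Gelatinases cut denatured collagen and type IV collagen of basement membranes. Mmp9, the gelatinase of neutrophils, macrophages and activated keratinocytes, was read by a pair of probes. The brighter one gave 0.68, -0.03 and -0.10 on imiquimod-named arrays 1, 2 and 3, and -2.50, -2.40 and -2.95 on vehicle-named arrays 1, 2 and 3. The difference was 2.80 (SE 0.26), or 6.96-fold, with 2.29 between the closest arrays. The other probe, printed as 10 spots of which 8 were used, gave 3.08 (SE 0.45). Both probes put imiquimod-named array 1 highest, and within slide 1 the brighter one gave 3.30. They lie at mm9 chr2:164780303-164780362 and chr2:164780620-164780679.

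Mmp2, the gelatinase made mostly by fibroblasts, differed far less. Its level was 3.29, 3.13 and 3.30 on imiquimod-named arrays 1, 2 and 3, and 2.25, 1.82 and 2.48 on vehicle-named arrays 1, 2 and 3. The imiquimod-named arrays agreed within 0.17, and the closest arrays of the groups were 0.65 apart. The difference was 1.06 (SE 0.19), or 2.08-fold. The probe lies at mm9 chr8:95376840-95376899.

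Mmp14, a membrane-anchored enzyme that activates the Mmp2 proenzyme, was bright in both groups. It stood at 5.08, 5.03 and 5.25 on imiquimod-named arrays 1, 2 and 3, and at 3.85, 3.67 and 3.47 on vehicle-named arrays 1, 2 and 3. The difference was 1.46 (SE 0.14), or 2.74-fold, and a second probe gave 1.63 (SE 0.16). Profiles were compared by the root mean square difference between gene-centred log2 values over the 6 arrays, which includes the difference between the groups. Of all pairs of measured members, Mmp2 and Mmp14 had the smallest value, 0.33, with Mmp2 and Mmp19 close behind at 0.35. Among the vehicle-named arrays, array 3 was the highest for Mmp2 and the lowest for Mmp14. The probes lie at mm9 chr14:55059969-55060028 and chr14:55058775-55058834.

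Mmp19 and Mmp12 showed no separation of the groups. Mmp19, an enzyme of basement membrane proteins, stood at -1.82, -1.91 and -2.00 on imiquimod-named arrays 1, 2 and 3, and at -2.51, -2.85 and -1.77 on vehicle-named arrays 1, 2 and 3. Vehicle-named array 3 lay above all imiquimod-named arrays. The difference of 0.46 (SE 0.28) was 0.77 without that array, 0.23 without vehicle-named array 2, and 0.29 with normexp correction. Mmp12, the elastase of macrophages, was not well above background on any array, so no fold is given; its probe reads mm9 chr9:7354810-7355325, and that of Mmp19 chr10:128236221-128236280.

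Timp1, the secreted inhibitor of most of these enzymes, was also higher on the imiquimod-named arrays. The brighter of its probes gave 4.86, 3.43 and 3.59 on imiquimod-named arrays 1, 2 and 3, and 0.89, 0.68 and 1.31 on vehicle-named arrays 1, 2 and 3. The closest arrays of the groups were 2.12 apart. The difference was 3.00 (SE 0.41), or 7.99-fold, and the other probe gave 3.01 (SE 0.44). Within slide 1 it was 3.90, and imiquimod-named array 1 was the highest. The probes lie at mm9 chrX:20451675-20451733 and chrX:20449905-20449964. No annotation of exons in mm9 was used, so the positions are those of the probes within these genes.

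The members varied to different extents among the imiquimod-named arrays. Array 1 lay above arrays 2 and 3 in 7 of the 9 measured members. It was the highest of all 6 arrays in 6 of the 9. Over all tested genes this share was 17.0%, but these include genes lower on the imiquimod-named arrays. The members were chosen by their difference between the groups, so nothing is read from these counts. The range over these 3 arrays was 2.89 for Mmp10, 1.76 for Mmp13 and 1.43 for Timp1, but 0.17 for Mmp2, 0.22 for Mmp14 and 0.18 for Mmp19. Array 1 was also the only imiquimod-named array on slide 1, so slide and array cannot be told apart here. Over the 9 members the median difference was 3.30 within slide 1.

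**Figure D2:**
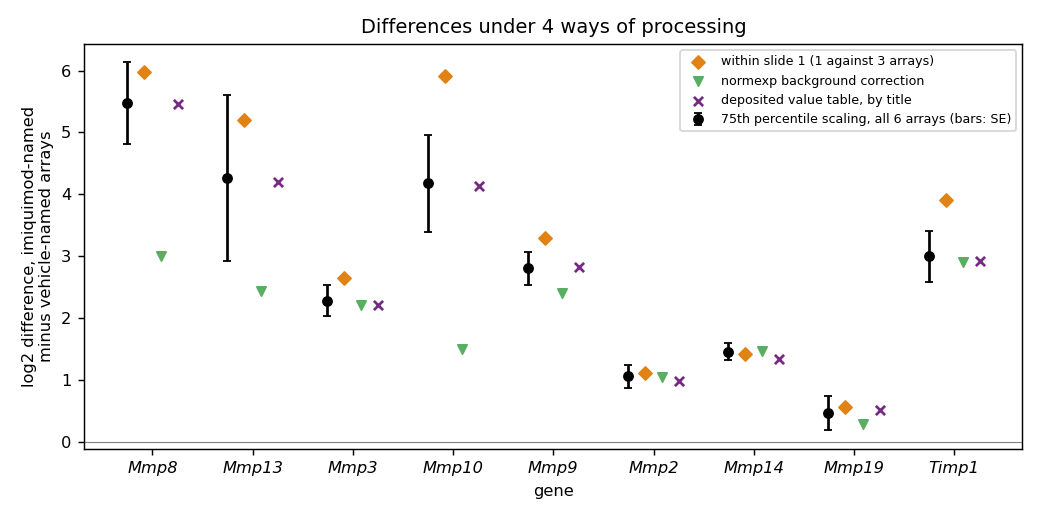
Log2 difference of each measured member, imiquimod-named minus vehicle-named, with the 75th percentile scaling (SE bars), within slide 1, with normexp background correction and from the deposited value table. All stay above 0; Mmp8, Mmp10 and Mmp13, which are dim on vehicle-named arrays, move most with the background correction.

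Genes with the most similar profiles over the 6 arrays were found by the root mean square difference of gene-centred log2 values. For Mmp9 Pglyrp1 (0.16) was among them, for Timp1 they were Ifitm1 (0.12) and Spp1 (0.19), for Mmp2 Olfr78 (0.04) and Pgf (0.06), and for Mmp13 Prl2c3 (0.72) and Chil3 (0.90). The genes named for Mmp13 were farther from it than those named for Mmp9, Timp1 and Mmp2 were from them.

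Markers of several other skin cell types differed between the groups. Of all tested genes 13.1% were higher and 10.5% lower on the imiquimod-named arrays. The marker counts below are without a slide term. Over all genes, that term took the higher calls from 2330 to 541 and the lower calls from 1866 to 518. Of 8 tested neutrophil markers, 7 were higher on the imiquimod-named arrays by limma (adjusted p under 0.05), and Mpo did not pass. The mean log2 signal of the list was -0.28 to 0.24 on imiquimod-named and -4.77 to -3.07 on vehicle-named arrays. Array 2 had the highest neutrophil mean of the vehicle-named arrays and was the one of them on which Mmp8 was well above background. Ngp, a neutrophil granule gene, was well above background on 0 vehicle-named arrays, Elane on 0 of 6 arrays, and Cd177 was too dim to test. Ngp is among the 7 higher markers and was bright enough to be tested only through the imiquimod-named arrays. Of 9 macrophage markers 5 were higher, with list means of 3.24 to 3.47 against 1.26 to 2.73, and of 8 fibroblast markers 5 were higher, at 3.08 to 3.29 against 2.13 to 2.82. Of 6 endothelial markers 4 were higher, at 0.76 to 0.92 against -0.55 to 0.13. Of 7 keratinocyte markers 4 were higher and 1 lower, at 6.71 to 6.80 against 6.02 to 6.39. Hair follicle markers went the other way: 6 of 7 were lower, with list means of -3.37 to -2.73 against 2.68 to 6.92. Krt25, among the 6, was well above background on 0 imiquimod-named arrays. It was bright enough to be tested only through the vehicle-named arrays. Muscle and adipocyte markers each had 1 lower gene, of 6 and 5, and list means that overlapped between groups. The part of these cell types in the levels of the metalloproteinases was not tested.

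**Figure D3:**
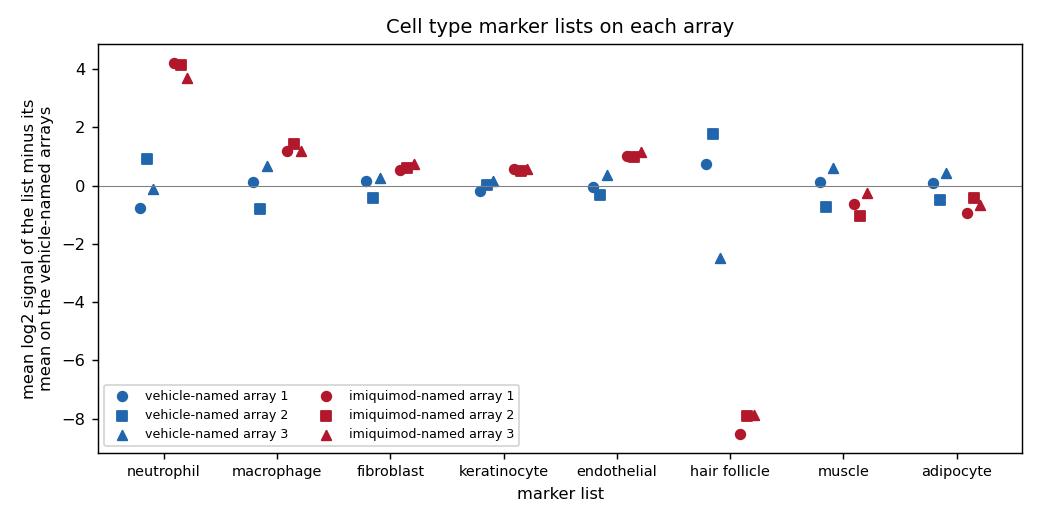
Mean log2 signal of each marker list on each array, minus the list's mean on the vehicle-named arrays. The neutrophil list is higher and the hair follicle list lower on all imiquimod-named arrays, and vehicle-named array 3 is the lowest of its group for the hair follicle.

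The other genes of matrix proteolysis were tested in 7 lists with limma over all 17777 genes (Benjamini-Hochberg). Of 76 tested genes, 26 were higher (34.2%) and 5 lower (6.58%) on the imiquimod-named arrays, against 13.1% and 10.5% of all tested genes. Their median difference was 0.38. The lists were chosen with earlier results of these data known, so nothing is read from their shares against those of all genes. Both counts include genes bright enough to be tested only through 1 group, such as Mmp25 and Adamts19. In a fit with a term for slide, 11 genes passed as higher and 1 as lower. At an unadjusted p under 0.05 in limma, 0 inhibitors were higher, 2 substrates were lower, and 0 other Mmp, plasminogen or Adam genes were lower.

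Of 14 other Mmp genes, 8 could be tested, 4 were higher, 0 lower and 4 did not pass. Mmp11, the stromelysin of stromal cells, rose by 3.32 (SE 0.23, adjusted p = 0.00163 in limma), from 0.87 ± 0.14 to 4.20 ± 0.43 (SD, n = 3). Mmp25, a membrane-anchored enzyme of leukocytes, was well above background on 0 of 3 vehicle-named arrays and was at least 2.43-fold higher (adjusted p = 0.00307 in limma). It passed the filter on dim probes only through the imiquimod-named arrays, and its log2 difference was 0.59 with normexp correction, less than that bound. Mmp16 and Mmp23, named after their values were seen, differed by 1.59 (1.02 with normexp correction) and 0.79. A second Mmp16 probe was well above background on 0 imiquimod-named and 0 vehicle-named arrays. Neither gene passed with a slide term (adjusted p = 0.0933 and 0.148 in limma). Mmp23 also lost its call without imiquimod-named array 1, 2 or 3 (adjusted p = 0.0762, 0.0611 and 0.0798 in limma). Mmp7 and Mmp21 were well above background on 0 of 6 arrays. The cluster neighbours Mmp1a and Mmp20 were too dim to test, and the levels of Mmp1b and Mmp27 were not analysed here.

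None of the other tested inhibitors was higher alongside Timp1. Of 4 tested with limma, 2 were lower, 0 higher and 2 did not pass. Timp3, the inhibitor bound to the matrix, fell by 1.80 (SE 0.28, adjusted p = 0.00958 in limma), from 4.54 ± 0.40 to 2.74 ± 0.38 (SD, n = 3). Timp4 fell by 1.35 (SE 0.21, adjusted p = 0.00958 in limma). With a slide term, which leaves 1 imiquimod-named array in the contrast, the call was lost though the difference was -1.56. Timp2, the inhibitor that also helps Mmp14 activate Mmp2, stood at 6.65 ± 0.12 against 6.71 ± 0.36 (SD, n = 3; adjusted p = 0.841 in limma). Reck, a membrane-anchored inhibitor, differed by -0.93 (adjusted p = 0.110 in limma).

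The plasminogen system makes plasmin, which activates several Mmp proenzymes. Its list also held genes outside this system. Of the 9 genes tested in the list, 3 were higher, 0 lower and 6 did not pass. Plat and Plau, the tissue-type and urokinase-type activators, rose by 1.36 (SE 0.18, adjusted p = 0.00583 in limma) and 1.55 (SE 0.21, adjusted p = 0.00632 in limma). Their calls were lost with a slide term (adjusted p = 0.0634 and 0.0564 in limma). Plaur, the receptor of urokinase, differed by 1.96 (adjusted p = 0.0124 in limma) and was named after its value was seen. It stood at 2.47, 1.58 and 1.43 on imiquimod-named arrays 1, 2 and 3. Its difference was 2.61 with a slide term, which sets array 1 alone against the vehicle-named arrays. With the replicate number as a block its call was lost (adjusted p = 0.0544 in limma).

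Adam proteases, membrane enzymes that shed cell-surface proteins, had 4 of 8 genes higher and 0 lower. The higher count was 1 with a slide term, 1 without imiquimod-named array 1 or vehicle-named array 1, 2 without imiquimod-named array 2 or 3, and 6 without vehicle-named array 3. Adam12 rose by 1.84 (SE 0.13, adjusted p = 0.00167 in limma), with 2 of 3 vehicle-named arrays well above background, and its difference was 0.74 with normexp correction. Adam10, a sheddase of Notch receptors and of other surface proteins, rose by 0.56 (SE 0.11, adjusted p = 0.0183 in limma). Adam10 did not pass with a slide term (adjusted p = 0.110) or without imiquimod-named array 1 or 3 or vehicle-named array 1 (adjusted p = 0.0722, 0.0712 and 0.0716).

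Adamts proteases, secreted enzymes of proteoglycans and procollagen, had calls in both directions: of 14 tested, 4 were higher, 2 lower and 8 did not pass. With a slide term 1 was higher and 0 lower. Without imiquimod-named array 2 or 3 the higher count was 2, and the lower count was 1 without imiquimod-named array 1. Adamts7 and Adamts15 rose by 1.29 (SE 0.16, adjusted p = 0.00514 in limma) and 1.65 (SE 0.22, adjusted p = 0.00610 in limma). Adamts20 fell by 2.46 (SE 0.34, adjusted p = 0.00709 in limma), and differed by -1.25 with normexp correction. Adamts19 was well above background on 0 of 3 imiquimod-named arrays and was at least 3.58-fold lower (adjusted p = 0.0135 in limma). It passed the filter only through the vehicle-named arrays, and its log2 difference was -0.98 with normexp correction, smaller than that bound. With slide as a block Adamts15, Adamts20 and Adamts19 did not pass (adjusted p = 0.0566, 0.0749 and 0.105 in limma). Adamts19 also did not pass without imiquimod-named array 1 or vehicle-named array 1 (adjusted p = 0.0532 and 0.0557 in limma).

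Matrix proteins that these enzymes cut had 7 of 18 genes higher and 0 lower, with 4 higher under a slide term and 2 lower without vehicle-named array 3. Eln, which encodes elastin, rose by 1.06 (SE 0.10, adjusted p = 0.00260 in limma), from -1.22 ± 0.05 to -0.16 ± 0.06 (SD, n = 3). Bgn, a small proteoglycan, rose by 0.97 (SE 0.10, adjusted p = 0.00345 in limma). With a slide term both passed (adjusted p = 0.0336 and 0.0384 in limma), as did Col1a1, named after its value was seen.

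Of 15 tested cytokines and transcription factors known to induce Mmp genes, 4 were higher, 1 lower and 10 did not pass. Among the 4 higher genes, 1 was well above background on 0 vehicle-named arrays. That gene was bright enough to be tested only through the imiquimod-named arrays, and its difference shrank with normexp correction. The higher count was 2 with a slide term and 2 to 7 when 1 array was left out: 7 without vehicle-named array 2, and 2 without imiquimod-named array 1 or 2 or vehicle-named array 1 or 3. Tgfb1 rose by 1.16 (SE 0.12, adjusted p = 0.00319 in limma), and Ets1, a transcription factor, rose by 0.86 (SE 0.14, adjusted p = 0.0107 in limma), a call lost with a slide term (adjusted p = 0.0682). Etv4, another Ets factor, fell by 1.45 (SE 0.34, adjusted p = 0.0304 in limma); it did not pass with a slide term (adjusted p = 0.190), without a filter on dim probes (adjusted p = 0.0521), or without any 1 of imiquimod-named arrays 1, 2 and 3 or vehicle-named arrays 1 and 2 (adjusted p = 0.0583 to 0.0996). Il1b, interleukin-1 beta, named after its value was seen, differed by 3.79 (SE 0.90, adjusted p = 0.0317 in limma). Leaving out any 1 array other than vehicle-named array 2 ended that call (adjusted p = 0.0648 to 0.104 in limma), and so did a slide term (adjusted p = 0.0992). Of the 7 tested Fos and Jun genes, which encode the AP-1 subunits, 0 passed in limma and 1, Jund, had an unadjusted p under 0.05. Jund differed by -0.68 (adjusted p = 0.0523 in limma), and passed in the deposited value table (-0.82, adjusted p = 0.0236). Without vehicle-named array 2 Junb passed, with a difference of 0.73 (adjusted p = 0.0421 in limma).

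**Figure D4:**
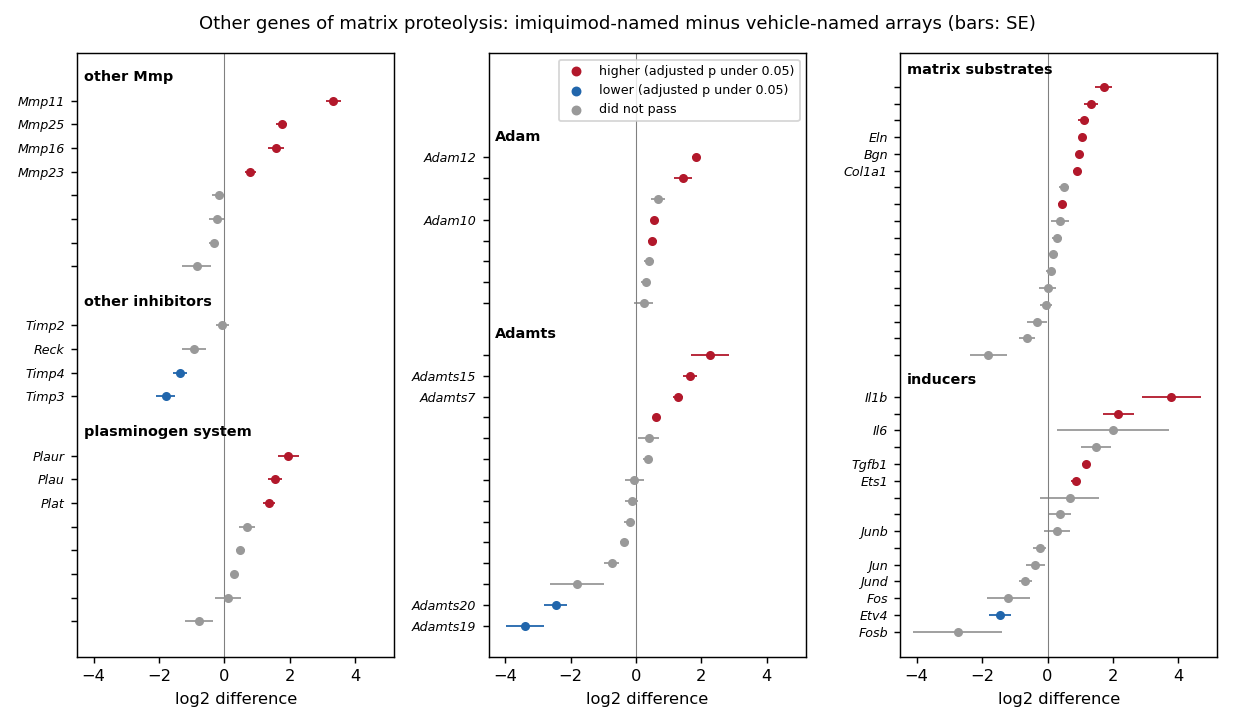
Log2 difference, imiquimod-named minus vehicle-named, of tested genes in the 7 lists, with SE bars and coloured by the limma call; gene names are given for those the text describes. Mmp11 at 3.32 and Il1b at 3.79 lie highest, and Timp3, Timp4, Adamts19, Adamts20 and Etv4 are the genes called lower.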

How the data were processed

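Total RNA of whole skin was labelled with Cy3 and hybridised to single-colour Agilent mouse arrays, per the labels. The authors deposited 1 scanner file per sample, whose values are linear spot intensity; the processed signal is background-subtracted and detrended, per the file headers. The headers name Agilent Feature Extraction 10.7.3.1 and build mm9, and the submitters' processing notes version 9.1. The authors also deposited a table of log2 values, with column medians of 7.05 and a normalization between arrays that is not given in the sources used here.

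Samples took groups from their titles. Scanner files were assigned to the sample that their file name describes, checked against the value table. Control spots and 322 outlier spots were left out, spots of a probe were averaged, and the 75th percentile of log2 signal was subtracted on each array (861 to 1106 in signal). The share of probes well above background was 61.2% to 67.4%. Precision is limited by the small number of arrays. Probes well above background on at least 3 of 6 arrays were tested, with the brightest probe for each gene. Genes were named through RefSeq accessions or synonyms (GRCm38.p6), and positions are as the scanner files give them. The test was limma 3.58.1 (R 4.3.3), two-sided, with Benjamini-Hochberg adjustment at 0.05, and the fit was tested on simulated data. The SE of a second probe of a gene comes from the same model fitted to probes.

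The members and gene lists were chosen with earlier results of these data known. The text names all members; of each list, the 2 genes of smallest p higher and lower; the 2 most similar genes for Mmp13, Mmp9, Timp1 and Mmp2; and others where stated. Some genes that this rule or the lists hold are not reported here. Replicate numbers did not pair the arrays: deviations of same-numbered arrays correlated at -0.0872, 0.0675 and 0.0854 across genes. No protein sequences were used here. Alternatives covered the filter, scaling, background, probe averaging, variance model, slide, replicate number, value table, filing and each array left out.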

Additional observations from a re-analysis of the deposited data

How the results depend on the processing

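Grouped as the scanner files are filed, every sign turned: the median of the members became -2.80, with -1.06 for Mmp2, -2.28 for Mmp3, -5.48 for Mmp8, -2.80 for Mmp9, -4.17 for Mmp10, -4.27 for Mmp13, -1.46 for Mmp14, -0.46 for Mmp19 and -3.00 for Timp1, and the lists had 5 higher and 26 lower genes. In all other alternatives each measured member's difference stayed above 0. The median moved to 1.87 when probes had to be well above background on all 6 arrays, which leaves out Mmp8, Mmp10 and Mmp13. It was 2.20 with normexp correction, and 3.30 both with a slide term and within slide 1, whose estimates are the same because slide 2 held 1 group. With a slide term 541 genes were higher and 518 lower, against 2330 and 1866, and 11 and 1 in the lists. Within slide 1, where 1 array met 3, 7 were higher and 1 lower, and 0 and 0 in the lists (24 and 5 at an unadjusted p under 0.05 in limma), against 26 and 5. With the replicate number as a block, though pairing by number is not known, 1164 were higher and 1043 lower, with 18 and 3 in the lists. Leaving out 1 array at a time gave medians of 2.55 to 2.94, 944 to 2514 higher and 745 to 2215 lower genes, and 18 to 28 higher and 3 to 8 lower in the lists. The counts over all genes fell by over 1.5 times without any 1 of imiquimod-named arrays 1, 2 and 3 or vehicle-named array 1. Dim signals limit Mmp8, Mmp10, Mmp13, Mmp25, Adam12 and 1 higher gene of the inducer list on the vehicle-named arrays. They limit Adamts19 and Adamts20 on the imiquimod-named arrays.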

Other observations

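On vehicle-named array 2, the levels of 7 of 7 tested Fos and Jun genes were the highest of the vehicle-named arrays. This was noticed in the data and was not tested. The share of all tested genes with this order was not counted, so nothing is read from the count. The scanner software had marked this array with the quality status evaluate. Fosb stood at -1.40, 2.69 and 2.15 on vehicle-named arrays 1, 2 and 3, and at -2.35, 0.49 and -2.93 on imiquimod-named arrays 1, 2 and 3. Il6, a cytokine of inflamed skin, stood at 0.06 on vehicle-named array 2 but at -6.34 and -5.29 on arrays 1 and 3, and at -0.92, -1.43 and -3.19 on imiquimod-named arrays 1, 2 and 3. Vehicle-named array 2 was the one array of its group on which Il6 was well above background, and the difference over all arrays was 2.01 (SE 1.72, adjusted p = 0.429 in limma). Without that array no vehicle-named array measured Il6, so no fold is given. Il1b was also highest of its group there, at 0.93 against -2.37 and -1.21.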
